A study of Homo sapiens with 2 samples.

Results

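The miR-320 family was described in RNA from exosomes, the small vesicles that cells release, of FaDu cells, an established human line of hypopharyngeal squamous cell carcinoma. Its 5 members, hsa-miR-320a, hsa-miR-320b, hsa-miR-320c, hsa-miR-320d and hsa-miR-320e, were taken by name from the human miRNAs of the array, of which they are 0.196%, with 10 of its 5893 miRNA probes. The rule is a list of names and uses no measured value, and the family was picked for description with earlier results of these data known. A single one-colour Agilent array, labelled with Cy3 from 200 ng of RNA, was hybridized for each group. The oe-NC group came from FaDu cells transfected with the NC plasmid and the oe-HOTTIP group from FaDu cells transfected with a plasmid that overexpresses the long noncoding RNA HOTTIP. The labels speak of a lentivirus in both groups and the methods of a transfected plasmid, and neither gives a clone, a passage or a second culture. The comparison asks which exosomal miRNAs differ between HOTTIP-overexpressed and control cells.

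With 1 array per group no difference had a replicate check, and no p-value was computed. For each array the title and the treatment give one group and the free-text description gives the opposite one. Groups follow the titles here, each array is named by its title ("the array labelled oe-NC", for example), and all directions would be the reverse if the descriptions were right. HOTTIP is not measured by a miRNA array, so its level could not settle the matter. In the authors' normalized table the columns are named by the same samples. The values of each column, however, track the scanner values of the array titled for the other group. The arrays shared a slide and a scan. The scanner software marked 328 miRNAs (12.9%) as detected on the array labelled oe-NC, 390 (15.3%) on that labelled oe-HOTTIP and 261 on both. Of 7 miRNAs fixed as epithelial markers, 6 were detected on both arrays, among them miR-205-5p, a miRNA of squamous epithelium, at an intensity of 415 on the array labelled oe-NC. The other, miR-203a-3p, was detected on neither array. Of 10 miRNAs fixed as markers of other cells, 5 were detected on both arrays, 1 on the array labelled oe-NC alone and 4 on neither. The red cell miRNA miR-451a was among the 5, with 2233 ± 869 (SD, 10 spots) on the array labelled oe-NC. Its scaled log2 difference, oe-HOTTIP minus oe-NC as explained below, was -0.46. The other red cell miRNA of the list, miR-486-5p, had -1.75, and the white cell miRNAs miR-223-3p and miR-150-5p had 0.69 and 1.38. With miR-122-5p of liver at 0.064, 1 of the 5 markers was at least 2-fold lower and 1 at least 2-fold higher. These counts are near the shares of all 261 miRNAs, 21.1% lower and 18.0% higher. miR-133a-3p of muscle was the marker detected on the array labelled oe-NC alone. The part of other cells in the results below was not tested.

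Most miRNAs are cut from long primary transcripts in the nucleus by Drosha and then trimmed by Dicer in the cytoplasm. The miR-320 precursor is known for a shorter route, in which the hairpin is transcribed directly, carries a cap, leaves the nucleus through exportin-1 and meets Dicer without having met Drosha. Its 3′ arm is the strand loaded into Argonaute. Mirtrons, hairpins released as whole introns by splicing, and miR-484, which also has a capped precursor, are other miRNAs that skip Drosha. The array measures mature miRNAs and does not show by which route they were made. A miRNA finds its target mRNAs mainly through its seed, the bases at positions 2 to 8.

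The mature sequences are shown because the members differ from each other almost wholly in their last bases, so that probes for them could share target RNA. They are RefSeq sequences, written 5′ to 3′ with the seed in capitals. A sequence was found for 4 of the 5 members, and hsa-miR-4429, the other array miRNA with the family's seed, is given with them.
hsa-miR-320b: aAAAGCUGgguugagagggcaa
hsa-miR-320c: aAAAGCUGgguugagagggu
hsa-miR-320d: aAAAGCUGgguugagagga
hsa-miR-320e: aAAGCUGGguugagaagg
hsa-miR-4429: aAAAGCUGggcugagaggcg

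hsa-miR-320b, hsa-miR-320c and hsa-miR-320d have the seed AAAGCUG, which 4 of the 2248 array miRNAs with a RefSeq sequence (0.178%) carry, those 3 and hsa-miR-4429. hsa-miR-320b and hsa-miR-320c are the same over their first 19 bases and differ by C20U, counted from 1 at the 5′ end of the miRNA named first. hsa-miR-320d is identical to both over its first 18 bases and differs from each by G19A, its last base. hsa-miR-320e begins 1 base further in, which moves its seed to AAGCUGG, a seed with no other carrier among the 2248, and 17 of its 18 bases match hsa-miR-320b, the exception being G17A at position 17 of hsa-miR-320b. hsa-miR-4429 differs from hsa-miR-320d by U11C and A19C, so that an internal base sets it apart as well. The lengths fall from 22 bases in hsa-miR-320b to 20, 19 and 18 in hsa-miR-320c, hsa-miR-320d and hsa-miR-320e. Between 75% and 78.9% of the bases of these 4 are purines.

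Each mature RNA of hsa-miR-320b, hsa-miR-320c and hsa-miR-320d can come from a pair of loci, which no probe can tell apart. In RefSeq's annotation of GRCh38.p14, hsa-miR-320d lies at chr13:40727828-40727846 on the minus strand (MIR320D1) and at chrX:140926172-140926190 on the minus strand (MIR320D2), and neither locus overlaps an annotated gene. hsa-miR-320b lies at chr1:116671787-116671808 on the plus strand (MIR320B1), outside any gene, and at chr1:224257049-224257070 on the minus strand (MIR320B2), within the span of NVL. Both loci of hsa-miR-320c are on the plus strand, MIR320C1 at chr18:21683559-21683578 within the span of ABHD3 and MIR320C2 at chr18:24321716-24321735 within that of OSBPL1A. hsa-miR-320e has the single locus MIR320E at chr19:46709294-46709311 on the minus strand, within the span of PRKD2. Whether these overlaps are with exons or introns was not analysed here. In the 7 hairpins the mature RNA starts at base 41 to 44 of 71 to 73, which places it in the 3′ arm.

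All 5 members were detected on both arrays, and hsa-miR-320d was the 1 member with every spot of both its probes well above background on both. For each member, 2 probes with 10 spots each were read, and the values here are background-subtracted intensities before any scaling, with the SD over spots pooled within probes. hsa-miR-320d read 141.5 ± 25.0 (19 spots) on the array labelled oe-NC but 82.0 ± 7.10 (19 spots) on that labelled oe-HOTTIP. These are 36.6 and 23.7 times the mean of the negative control spots of the same array, which was 3.87 ± 2.37 (976 spots) and 3.45 ± 2.21 (975 spots).

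The other members lay closer to those controls, and before scaling each of them was brighter on the array labelled oe-HOTTIP. hsa-miR-320a, the best-known member of the family, read 12.4 ± 2.12 (17 spots) on the array labelled oe-NC against 20.3 ± 2.83 (20 spots) on the array labelled oe-HOTTIP. hsa-miR-320b had 21.1 ± 2.99 (18 spots) and 25.7 ± 3.15 (17 spots). hsa-miR-320c had 27.8 ± 4.61 (19 spots) and 39.1 ± 4.51 (20 spots). These 3 members stood at 3.19 to 7.18 times the negative control mean on the array labelled oe-NC and at 5.88 to 11.3 times on the other. hsa-miR-320e had 31.4 ± 4.32 (19 spots) and 43.1 ± 6.20 (20 spots), 8.12 and 12.5 times the negative control mean. The intensities of different miRNAs are not comparable as amounts, since each probe has its own affinity, and only differences between the arrays are compared between members.

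**Figure D1:**
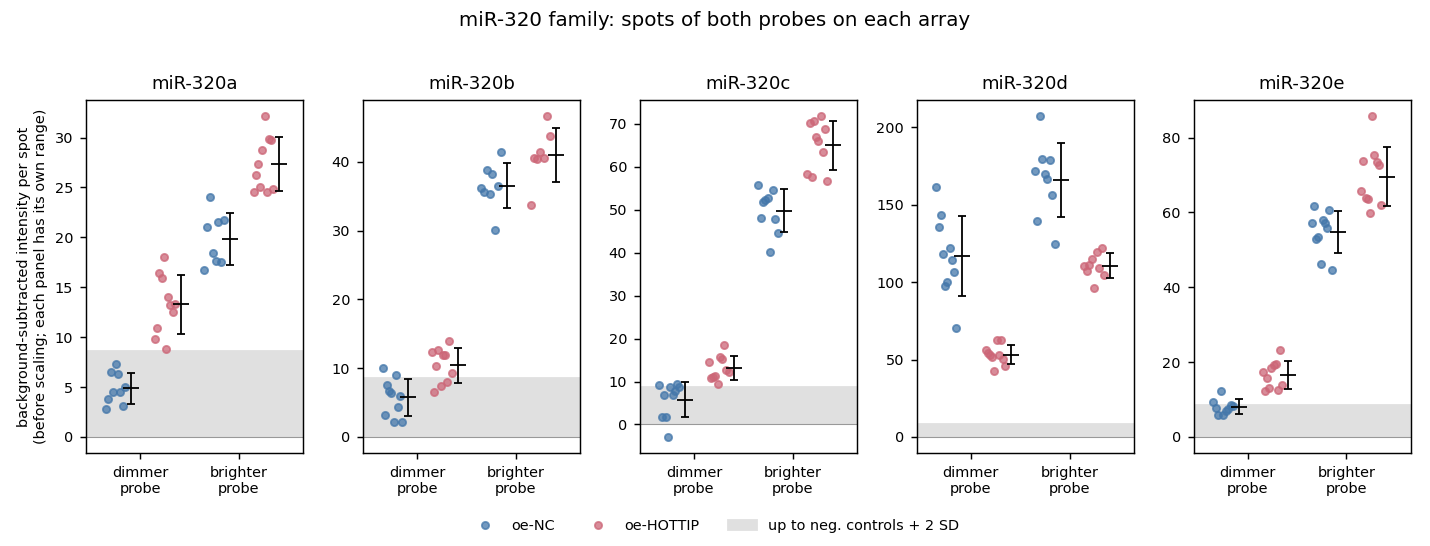
Intensity of each spot, background-subtracted and before scaling, for both probes of the 5 members on the arrays labelled oe-NC (blue) and oe-HOTTIP (red), each panel with its own vertical range. Black marks are mean and SD over spots, and the grey band reaches up to the negative controls plus 2 SD. The miR-320d spots of the array labelled oe-NC lie above those of the array labelled oe-HOTTIP for both probes, while most dimmer-probe spots of miR-320a, miR-320b, miR-320c and miR-320e on the array labelled oe-NC lie in the band.

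The array labelled oe-HOTTIP was brighter as a whole, and the 261 miRNAs detected on both arrays had an unscaled median log2 difference of 0.67. Each array was therefore divided by its own 90th percentile over those miRNAs, 279.9 for the array labelled oe-NC and 439 for the other, which lowers every log2 difference by 0.65 and brings the median to 0.024. Differences below are on this scaled log2 scale, oe-HOTTIP minus oe-NC, unless they are called unscaled. Over the 261 miRNAs they ran from -4.04 to 4.24 with an SD of 1.31 and quartiles of -0.66 and 0.73.

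hsa-miR-320d was lower on the array labelled oe-HOTTIP by a log2 difference of -1.44, or 2.71-fold. Its standard error over spots was 0.065 and its spread, the SDs of both arrays combined, 0.28. Both cover only the scatter of spots within a probe on these 2 arrays. They leave out the gap of 0.55 between its probes, given below. Unscaled, the difference was -0.79. It was the only member past the 2-fold threshold of the methods. That is 1 of 5 members lower and 0 of 5 higher, beside 55 of 261 miRNAs lower (21.1%) and 47 higher (18.0%). The share of 1 in 5 is close to that background. Of the 261 miRNAs, 37 (14.2%) had a lower difference than hsa-miR-320d.

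The other members lay near the median of all miRNAs. hsa-miR-320b had -0.37 ± 0.065 (SE over spots), hsa-miR-320e -0.20 ± 0.065, hsa-miR-320c -0.16 ± 0.066 and hsa-miR-320a 0.065 ± 0.075. The spread of hsa-miR-320b was 0.27, smaller than its difference, and those of hsa-miR-320a, hsa-miR-320c and hsa-miR-320e, 0.29 to 0.32, were larger than theirs. The family's median was -0.20, against 0.024 over all 261, and its differences had an SD of 0.59. Without hsa-miR-320d the SD was 0.18 and the median -0.18. Since all 4 of these were, unscaled, 0.28 to 0.72 brighter on the array labelled oe-HOTTIP, their direction against 0 was set by the scaling and is not a result about the family.

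**Figure D2:**
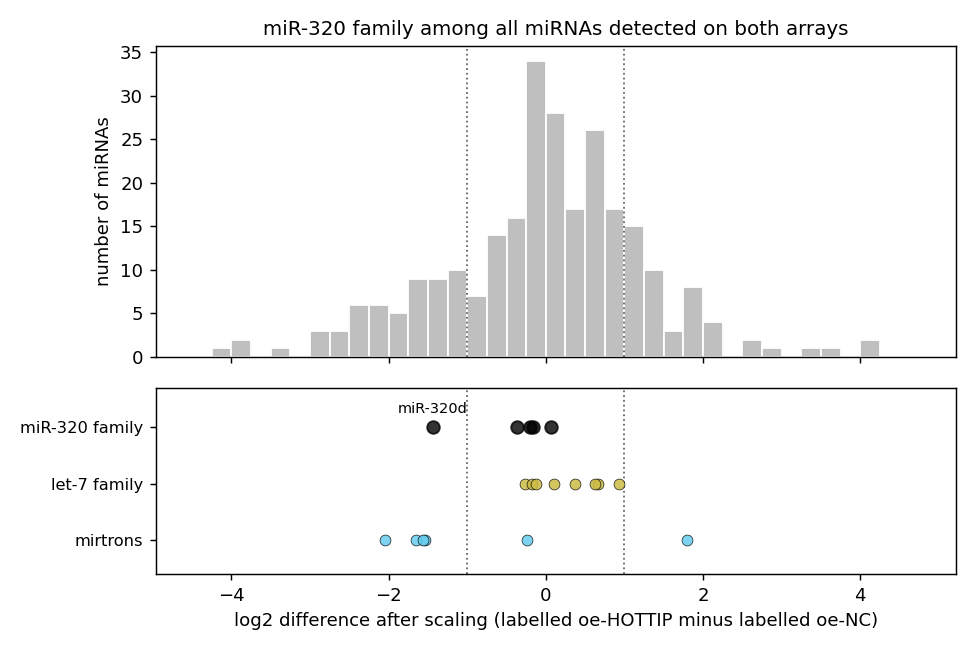
Top, number of miRNAs by log2 difference after scaling (labelled oe-HOTTIP minus labelled oe-NC) for the 261 miRNAs detected on both arrays. Bottom, the members of the miR-320 family, the let-7 family and the mirtron list that were detected on both arrays, on the same axis. Dotted lines mark 2-fold, and miR-320d at -1.44 is the only miR-320 member beyond them.

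Dividing an array by 1 number cancels within the family, so the gap between hsa-miR-320d and the others does not depend on it. In order of their differences the members ran hsa-miR-320d, hsa-miR-320b, hsa-miR-320e, hsa-miR-320c and hsa-miR-320a, and among the last 4 no neighbours in that order were apart by more than their combined spread. Over the 10 pairs of members, the 4 pairs with hsa-miR-320d differed by 1.07 to 1.5 in log2 difference, each by more than the combined spread of the pair. The 6 pairs of the other members differed by 0.038 to 0.43. Of these, hsa-miR-320a and hsa-miR-320b, at 0.43 with a spread of 0.42, were the 1 pair apart by more than their spread. That spread leaves out the disagreement between a member's probes. Both values include a dimmer probe with 0 of 10 spots well above background on the array labelled oe-NC, so the pair is not shown to be apart. hsa-miR-320d lay 1.26 below the median of the other 4. It differs from hsa-miR-320b and hsa-miR-320c by its last base and its length, and shares with both the seed shown above.

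Both probes of hsa-miR-320d read the decrease. Probe A_25_P00015271 had 166 ± 24.0 (9 spots, from 125 to 207) on the array labelled oe-NC against 110.7 ± 7.81 (9 spots, from 96.4 to 122) on the array labelled oe-HOTTIP, a scaled difference of -1.24 ± 0.077 (SE) and an unscaled one of -0.58. Probe A_25_P00015270 had 117.0 ± 25.8 (10 spots, from 70.1 to 161.5) and 53.3 ± 6.40 (10 spots, from 42.4 to 62.7), a scaled difference of -1.79 ± 0.11 (SE) and an unscaled one of -1.14. For each of these probes all 10 spots were well above background on both arrays, and the spots of the arrays did not overlap, scaled or unscaled. The share of all probes without overlap is not given here, so this does not set hsa-miR-320d apart. Probe A_25_P00016765 of hsa-miR-4429, which was detected on neither array, had no overlap either. Unscaled, both probes of hsa-miR-320a and the brighter probe of hsa-miR-320c also had none, with the higher spots on the array labelled oe-HOTTIP. The probes of hsa-miR-320d differed by 0.55 in the size of the decrease. Of 231 miRNAs with a pair of probes above 0, 44 (19.0%) had probes at least that far apart, and the median gap was 0.18. The gap of 0.55 was the smallest of the 5 members, but this ranking does not show better agreement of its probes. The dimmer probes of hsa-miR-320a, hsa-miR-320b and hsa-miR-320c had no spot well above background on the array labelled oe-NC. Each other member's dimmer probe lay within 2 SD of the negative controls on that array, with its brighter probe above. Among 60 miRNAs with such a pair, 26 (43.3%) had a gap of at least 0.55.

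The brighter probes of the other 4 members had at least 9 of 10 spots well above background on both arrays. Probe A_25_P00012262 of hsa-miR-320a had 19.8 ± 2.61 on the array labelled oe-NC against 27.3 ± 2.71 on that labelled oe-HOTTIP, a scaled difference of -0.19 ± 0.081 (SE). Probe A_25_P00015035 of hsa-miR-320b had 36.5 ± 3.29 (from 30.1 to 41.4) and 41.0 ± 3.92 (from 33.8 to 46.6), a scaled difference of -0.48 ± 0.069 (SE). After scaling its spots did not overlap between the arrays, and before scaling they did. The share of all probes without overlap is not given here, so this does not set the probe apart. Probe A_25_P00015037 of hsa-miR-320c had 49.8 ± 5.07 and 65.0 ± 5.71, a scaled difference of -0.27 ± 0.063 (SE). Probe A_25_P00015664 of hsa-miR-320e had 54.8 ± 5.63 and 69.6 ± 7.96, a scaled difference of -0.31 ± 0.070 (SE). So the brighter probes of these 4 members lay between -0.48 and -0.19 after scaling, all higher than either probe of hsa-miR-320d. Unscaled, they lay between 0.17 and 0.46, so their side of 0 was set by the scaling.

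The dimmer probes of hsa-miR-320a, hsa-miR-320b and hsa-miR-320c had 0 of 10 spots well above background on the array labelled oe-NC, at 4.88 ± 1.58, 5.75 ± 2.74 and 5.80 ± 4.16. The array labelled oe-HOTTIP gave 13.3 ± 2.95, 10.4 ± 2.52 and 13.2 ± 2.82, with 7, 5 and 6 of 10 spots well above background. No fold is given for these 3 probes, because against the lowest signal of a probe with over 50% of its spots well above background on the array labelled oe-NC, 10.4, the scaled ratio was under 1. The dimmer probe of hsa-miR-320e had 8.06 ± 2.0 with 2 of 10 spots well above background and 16.5 ± 3.66 with 10 of 10. Its scaled difference was 0.39 ± 0.16 (SE), on the other side of 0 from the brighter probe of hsa-miR-320e. Unscaled, both probes of hsa-miR-320e were brighter on the array labelled oe-HOTTIP. Each member's value is the mean of both its probes, so the difference of hsa-miR-320a, 0.065, includes a probe that was not well above background on 1 array. It has the opposite sign to the -0.19 of its brighter probe. Unscaled, hsa-miR-320a had 0.72 and its brighter probe 0.46, so this contrast of signs depends on the scaling.

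**Figure D3:**
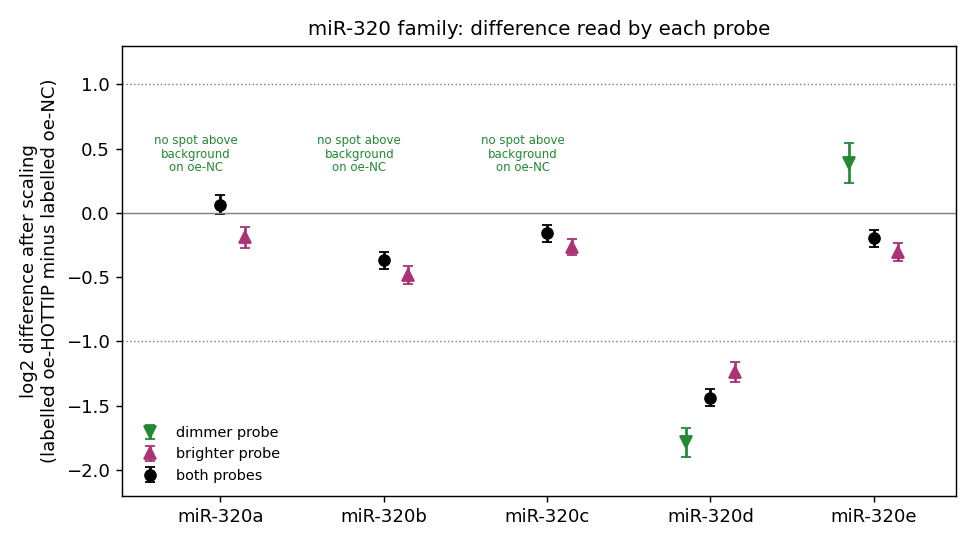
Log2 difference after scaling (labelled oe-HOTTIP minus labelled oe-NC) read by the dimmer probe, the brighter probe and both probes together of each member, with standard errors over spots; dotted lines mark 2-fold. Both miR-320d probes lie below -1, the brighter probes of the other 4 members lie between -0.48 and -0.19, and no value is drawn for the 3 dimmer probes with no spot well above background on the array labelled oe-NC.

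hsa-miR-4429, which has the family's seed, was detected on neither array. miR-484, which has a capped precursor of its own, was detected on neither array either, with an intensity of 4.67 ± 2.02 on the array labelled oe-NC, 1.21 times the negative control mean. Of 25 miRNAs listed as other Drosha-independent miRNAs, as mirtrons or as capped, 23 were on the array. Of these, 6 were detected on both arrays, all of them listed as mirtrons. By which route each was made was not tested. Among the 6, 4 were at least 2-fold lower on the array labelled oe-HOTTIP, namely miR-1228-3p at -2.05, miR-1234-3p at -1.65, miR-1238-3p at -1.56 and miR-1225-5p at -1.53, beside the 21.1% of all miRNAs. miR-1229-5p was higher at 1.80, and miR-1237-3p had -0.24. The median of these 6 was -1.55, against -0.20 for the miR-320 family, but it leaves out the mirtrons detected on 1 array. Of those, 5 were detected on the array labelled oe-HOTTIP alone and were brighter there, among them miR-1238-5p at 23.9 ± 3.81 against 4.65 ± 2.12 and miR-1228-5p at 20.8 ± 3.35 against -2.41 ± 1.74, and 1, miR-1236-3p, was detected on the array labelled oe-NC alone, at 0.976 ± 1.77, below the negative control mean. The list as a whole thus held members on both sides. hsa-miR-320d lay near the 4 lower mirtrons in its difference and the other miR-320 members near miR-1237-3p. This nearness is not particular to mirtrons. miRNAs outside the list lay nearer still to hsa-miR-320d, among them miR-151a-3p at -1.44 and miR-4257 at -1.40. The difference between the lists was not tested, since 1 array per group allows no test.

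The let-7 family, whose precursors need Drosha, gives a second family of near-identical miRNAs. Of its 9 members on the array 8 were detected on both arrays. Of these, 0 were 2-fold apart, beside 21.1% lower and 18.0% higher among all 261 miRNAs. The 8 had a median of 0.24, a range from -0.26 for let-7b-5p to 0.94 for let-7f-5p, and an SD of 0.45. The SD of all 5 miR-320 members was 0.59. Of all 261 miRNAs, the 3 whose difference was nearest to the miR-320 median were miR-494-3p at -0.20, miR-324-3p at -0.19 and miR-100-5p at -0.19. Likeness here was measured over 1 difference between 2 arrays.

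The scanner software's own summed intensity per miRNA, given with its error estimate, had hsa-miR-320d at 40.0 ± 2.94 on the array labelled oe-NC against 23.2 ± 1.80 on that labelled oe-HOTTIP. The other 4 members were higher on the array labelled oe-HOTTIP on this measure, from 2.80 ± 0.41 to 5.74 ± 0.63 for hsa-miR-320a and from 8.89 ± 0.90 to 12.2 ± 1.12 for hsa-miR-320e. In the authors' table of normalized log2 values, hsa-miR-320d stood at 4.05 in the column named for oe-NC and at 5.69 in the column named for oe-HOTTIP, a difference of 1.65. The other 4 members differed by -0.23 for hsa-miR-320a to 0.50 for hsa-miR-320e between these columns. Each column of the table tracks the scanner values of the array titled for the other group, so its sign is the opposite of the scaled scanner difference for every member, while the unscaled differences of hsa-miR-320b, hsa-miR-320c and hsa-miR-320e, 0.28, 0.49 and 0.45, have the same sign as the table's columns as named. The files do not settle which naming is right. In size, hsa-miR-320d was furthest from the other members in both.

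**Figure D4:**
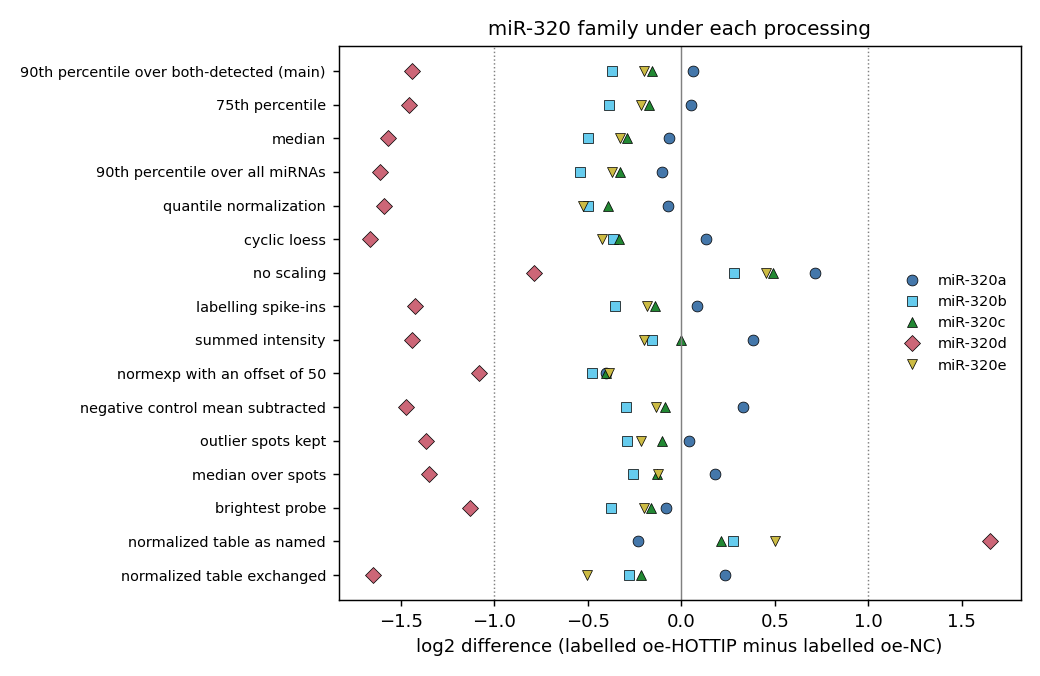
Log2 difference (labelled oe-HOTTIP minus labelled oe-NC) of each member under the main processing, in the top row, and under each alternative below it; dotted lines mark 2-fold. miR-320d is the lowest member in every row except the authors' table with its columns as named, where it is the highest at 1.65, and it is within 2-fold only with no scaling between the arrays, at -0.79. Rows that only divide an array by another number cannot change the order of the members.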

How the data were processed

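RNA of FaDu exosomes was measured on 1 Agilent miRNA array per group. The authors deposited each array's scanner output, with a background-subtracted intensity per spot, from Agilent Feature Extraction (version 10.10 in the submitters' processing notes, 11.5.1.1 in the file header), and a table of normalized log2 values from GeneSpring, for which the methods name 90th percentile normalization. No column holds the authors' own comparisons.

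From the intensity values, control and outlier spots (1631 and 1609 miRNA spots) were left out, spots were averaged per probe and probes per miRNA, the values of an array were scaled to its 90th percentile among the 261 miRNAs that both arrays detected, since under 50% were detected, and log2 was taken last. Spot errors cover only the scatter of spots within probes, a part of the technical error, and the number of arrays limits precision. The threshold was 2-fold. Named miRNAs were the 5 members, array miRNAs with a member's seed, miR-484 and the 3 miRNAs nearest in difference to the members' median; list members and markers are named beside their counts. Members and lists were chosen with earlier results of these data known. normexp was planned on mean spot signals; median spot signals were used. The calculation was tested on simulated data. The tools were R 4.3.3 with limma 3.58.1, and Python 3.11.15 with pandas 2.3.3, numpy 2.4.6 and matplotlib 3.10.9.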

Additional observations from a re-analysis of the deposited data

How the results depend on the processing

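Over 14 alternatives for the scaling, background, spots, probes, summed intensity and the authors' table with its columns exchanged, hsa-miR-320d ran from -1.67 (cyclic loess) to -0.79 (no scaling), stayed lowest of the 5 members and was at least 2-fold lower in 13. It lay 0.68 (normexp with an offset of 50) to 1.40 below the median of the other 4, which were within 2-fold in all 14. In the table with its columns as named, hsa-miR-320d was at 1.65, the opposite direction. Exchanging the columns only turns that value into -1.65. Alternatives that only divide an array by another number, or leave out the scaling, cannot change the order of the members or the gaps between them. The 14 are therefore not 14 separate checks of which member is lowest. The members' median, -0.20, was -0.50 with quantile normalization, 0.45 with no scaling and 0.28 in the table as named, and with no scaling 0 members were 2-fold apart. The number of all miRNAs 2-fold apart, 102, was 33 with normexp, 56 where detection needed over 50% of the spots well above background, which left 2 of the 5 members (hsa-miR-320d and hsa-miR-320e), and 156 at 1.5-fold. The calls split into 55 lower and 47 higher (53.9% lower), 30 and 101 with no scaling (22.9%) and 26 and 7 with normexp. Why these values moved was not tested, except that leaving out the scaling adds 0.65 to every difference. Scaling by the labelling spike-ins was added with the data in view. No paired analysis was possible because there is 1 array for each group, and for the same reason no replicate could be left out. Of the dimmer probes only that of hsa-miR-320d was well above background throughout on both arrays, so signal limits the values of the other 4 members.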
